A study of Arabidopsis thaliana with 6 samples.

Results

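The nuclear genes for the small subunit of Rubisco (*RBCS1A*, *RBCS1B*, *RBCS2B* and *RBCS3B*) and the gene for Rubisco activase (*RCA*) were followed in seedlings of *Arabidopsis thaliana*. The members were chosen by locus identifier, and all 5 were found among the 30865 genes of the count table. Whole 9-day-old seedlings were compared between the nup50c mutant (3 libraries) and wild type, the accession Col-0 (3 libraries). NUP50 is a nucleoporin, a component of the pores that span the nuclear envelope. Both groups received no treatment and grew on MS medium with 1% sucrose. The labels give no allele for the mutant, and the number in the name of a mutant sample was read as a replicate although it could also name an allele. Nothing states that the samples came from separate cultures, so p-values reflect only how far these libraries vary, and that variation could be purely technical.

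Rubisco fixes carbon dioxide in the chloroplast and is assembled from large subunits, encoded by *rbcL* in the plastid genome, and small subunits, encoded by a nuclear gene family and imported. Rubisco activase uses ATP to free inhibited Rubisco active sites of bound sugar phosphates, so that the enzyme stays active in the light. In green tissue *RBCS* and *RCA* transcripts are among the most abundant messengers of the cell, and light, sugars and the circadian clock are known to act on them.

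The count table summed to between 33273007 and 36984121 counts in nup50c libraries and between 35116694 and 39574236 in Col-0 libraries. *NUP50C* (AT4G11790) itself had 11.3 ± 2.00 CPM in nup50c and 31.7 ± 3.53 in Col-0 (SD, n = 3 each). CPM are counts scaled to a common library size, here with trimmed means of M values (TMM). nup50c replicate 3 stood apart from the other libraries on the second principal component. Root markers (*SCR*, *CASP1*, *PYK10* and others), guard cell markers (*MYB60*, *KAT1* and others) and vascular markers (*SUC2*, *XCP2* and others) were all detected in at least some libraries. Of these 19 markers none passed the edgeR test between the groups, which 2.28% of all genes tested passed. The summed CPM of the 10 root markers, of which *PYK10* made up most, ran from 2486 to 3082 in nup50c and from 2190.2 to 2432 in Col-0. That of the 4 guard cell markers ran from 42.7 to 43.6 in nup50c and from 46.3 to 49.5 in Col-0. That of the 5 vascular markers ran from 240.8 to 296.0 in nup50c and from 278.2 to 310.0 in Col-0. Of the vascular markers, *VND7* was listed at 0 in some libraries of both groups. The sums of root and of guard cell markers did not overlap between the groups, while those of vascular markers did. Among single genes, the CPM of 23.4% of those tested did not overlap, and no such share was computed for other sums. The part of tissue composition in the results was not tested, and in whole seedlings fewer cells of a type and less RNA per cell cannot be told apart. No harvest time appears in the labels. The morning gene *CCA1* was at 25.7 ± 1.89 CPM in nup50c and 73.0 ± 9.28 in Col-0, and the evening gene *TOC1* at 118.7 ± 8.03 in nup50c and 72.3 ± 9.18 in Col-0 (SD, n = 3 each), so a difference in time of day cannot be told apart from the genotype.

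In the RefSeq TAIR10.1 annotation *RBCS1A* (AT1G67090) lies alone at chr1:25048158-25049667. The other copies form a cluster of 8333 bases on chromosome 5, all on the minus strand: *RBCS3B* (AT5G38410) at chr5:15376988-15378642, *RBCS2B* (AT5G38420) at chr5:15380907-15382071 and *RBCS1B* (AT5G38430) at chr5:15383167-15385320. Between *RBCS3B* and *RBCS2B* the annotation has a pair of lncRNA genes, which held at most 29 counts in any library. *RCA* (AT2G39730) lies at chr2:16570746-16573692, and AT2G39725 overlaps it on the other strand with 85 to 119 counts in nup50c libraries and 99 to 102 in Col-0 libraries. These counts are small beside those of *RCA*, which ran from 205764 to 226526 in nup50c and from 233513 to 279104 in Col-0. No other gene overlaps a member.

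**Figure D1:**
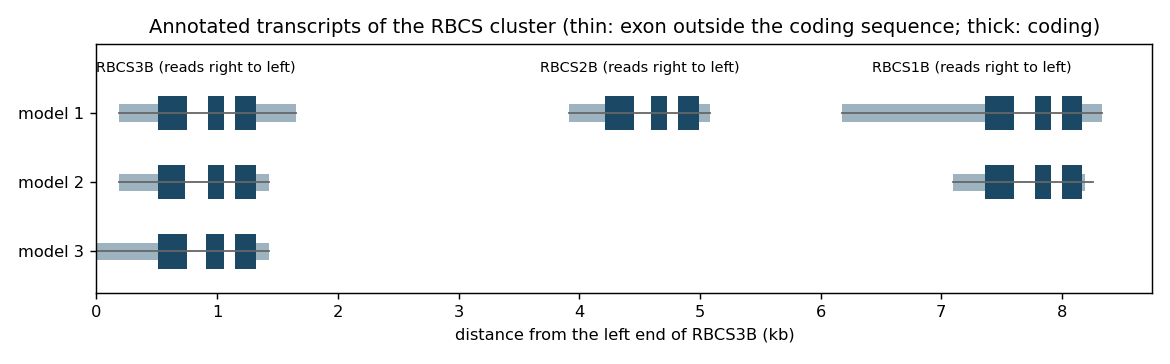
Annotated TAIR10.1 transcript models of the 3 clustered RBCS genes, by distance in kb from the left end of RBCS3B. All are read right to left; thick bars are coding exons and thin bars are exon sequence outside the coding region. Model 1 of RBCS1B extends far beyond its stop codon.

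The copies are close in sequence, which matters for the assignment of reads. Coding sequences of the clustered copies were 96.7% to 97.2% identical to each other (15 to 18 differing bases of 546, taking the *RBCS3B* model of that length), and each was 90.4% to 90.6% identical to *RBCS1A*. Of the 181 codons, 4 encoded another amino acid between *RBCS1B* and *RBCS2B*, and 6 between either of these and *RBCS3B*. Differing bases were densest near the start of the coding sequence, which encodes the transit peptide that directs import into the chloroplast. The stretch from base 16 to base 105 of each coding sequence, counted from the A of the start codon, is shown because it tells the copies apart best. Capitals mark bases that differ from the one most copies carry, and in columns where no base is carried by more than 2 copies all bases are capitals.
RBCS1A (chr1:25049145-25049234, minus strand): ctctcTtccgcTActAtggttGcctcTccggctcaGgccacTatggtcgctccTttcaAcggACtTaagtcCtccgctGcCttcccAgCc
RBCS1B (chr5:15385051-15385140, minus strand): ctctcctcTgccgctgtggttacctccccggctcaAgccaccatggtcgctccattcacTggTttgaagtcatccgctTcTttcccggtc
RBCS2B (chr5:15381874-15381963, minus strand): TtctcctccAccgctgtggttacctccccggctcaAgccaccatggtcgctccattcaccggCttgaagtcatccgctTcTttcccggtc
RBCS3B (chr5:15378202-15378291, minus strand): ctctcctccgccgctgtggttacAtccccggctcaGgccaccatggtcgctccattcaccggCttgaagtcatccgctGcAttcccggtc
In this stretch 23 of 90 columns vary among the copies, whereas 3 of 90 vary between bases 238 and 327. The design text names reads of 150 bases. No window of 150 bases of the *RBCS1A* or *RBCS2B* transcripts occurred unchanged in another copy, while 84 windows were shared by *RBCS1B* and *RBCS3B* (4.81% of the windows of the longest *RBCS1B* model and 7.92% of those of the longest *RBCS3B* model, each set against all models of the other copies). At 75 bases *RBCS2B* shared 4.99% of its windows with another copy, and at 50 bases 21.4%, beside 1.48% for *RBCS1A*, 14.0% for *RBCS1B* and 18.3% for *RBCS3B*. The labels do not state how reads that match more than 1 copy were counted, so the values of single copies, *RBCS2B* included, are uncertain. The sum of the 4 copies does not depend on how such reads were split between them, but it lacks such reads if they were left out.

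Upstream of the start codon the copies differ more. In an alignment of the 250 bases before the start codon, *RBCS2B* and *RBCS3B* had 216 identical bases, *RBCS1B* had 183 with *RBCS2B* and 184 with *RBCS3B*, and *RBCS1A* had 140 to 150 with the clustered copies. The G-box (CACGTG, its own reverse complement), bound by bZIP and bHLH factors of light signalling, occurred once within 500 bases before the start codon of *RBCS1A*, *RBCS2B*, *RBCS3B* and *RCA*, and not before that of *RBCS1B*. Of 27444 protein-coding genes of the nuclear chromosomes, 9.34% had it in the same window. The I-box (GATAAG, searched on both strands), a motif known from light-regulated promoters, had 2 matches before *RBCS1A*, 2 before *RBCS1B*, where they overlap by a single base, 3 before *RBCS2B*, 3 before *RBCS3B* and 1 before *RCA*, against 23.5% of all genes with at least one. The evening element (AAAATATCT) and the CCA1-binding site (AAAAATCT), searched on both strands, had no match before any member and occurred before 4.02% and 13.2% of all genes. The 30 bases around the G-box, or around the I-boxes of *RBCS1B*, are shown for comparison with G-box and I-box matches in capitals; parts of them lie within annotated transcript models.
RBCS1A (chr1:25049487-25049516, minus strand): ttatcttcCACGTGgcattattccagcggt
RBCS1B (chr5:15385304-15385333, minus strand): aaaagaaaGATAAGATAAGggtgtcaacac
RBCS2B (chr5:15382173-15382202, minus strand): ttttctgcCACGTGatCTTATCctagtggt
RBCS3B (chr5:15378502-15378531, minus strand): ttttctgcCACGTGgcCTTATCctagtggt
RCA (chr2:16573575-16573604, minus strand): acatattcCACGTGgaccaatcaaaataga
*RBCS2B* and *RBCS3B* have the same arrangement of a G-box followed by an I-box on the other strand. A match is a description of the letters and shows no binding.

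Per length, *RBCS1A* was the most abundant copy in every library. Its deposited FPKM (fragments scaled for transcript length and library depth) were 8474, 7944 and 8162 in nup50c and 8199, 8264 and 8439 in Col-0, the second highest mean of all genes. *RBCS3B* followed, with 5211 ± 247.6 FPKM in nup50c and 5046 ± 323.8 in Col-0 (SD, n = 3 each). *RBCS2B* had 3531, 3167 and 3206 FPKM in nup50c and 2332, 2291 and 2601 in Col-0. *RCA* had 3053, 2765 and 2876 FPKM in nup50c and 3112, 2966 and 3215 in Col-0. The order of *RBCS2B* and *RCA* thus differed between the groups, since *RBCS2B* lay above *RCA* in each nup50c library and below it in each Col-0 library. *RBCS1B* was the lowest, at 1133 ± 67.7 FPKM in nup50c and 998.1 ± 34.6 in Col-0. For the *RBCS* copies the FPKM followed from the counts and the length of the longest annotated transcript, within 0.662% in each library. That length is 1894 bases for *RBCS1B*, whose other model has 840 bases. Divided by the shorter models, *RBCS1B* would have 2555 ± 152.6 FPKM in nup50c and 2250.5 ± 78.0 in Col-0. It would then still lie below *RBCS2B* in every library, with 2240, 2179 and 2333 FPKM for *RBCS1B* in Col-0 beside 2332, 2291 and 2601 for *RBCS2B* in the same libraries.

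The comparison of nup50c with Col-0 asked which of these transcripts differ between mutant and wild type. *RBCS2B* rose in nup50c, *RBCS1B* was 12.2% higher without passing the test, *RBCS3B* (1.89%) and *RBCS1A* (-2.38%) differed little, and *RCA* was 7.51% lower without passing. All 5 members passed the filter on low counts. One member of 5 was called by edgeR's quasi-likelihood test at a Benjamini-Hochberg adjusted p under 0.05, against 2.28% of the 21158 genes tested. By this test 1.12% of all genes were higher and 1.17% lower. The counts behind these shares moved with single libraries: without nup50c replicate 3 the test called 172 genes higher and 266 lower, and without any other single library between 43 and 155 higher and between 65 and 216 lower, against 236 and 247 with all libraries.

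*RBCS2B* had 3593, 3194 and 3324 CPM in nup50c, against 2403, 2352 and 2706 CPM in Col-0. Each nup50c library lay above each Col-0 library. The mean was 3370.3 ± 203.5 CPM in nup50c and 2487 ± 191.4 in Col-0 (SD, n = 3 each), a rise of 35.5% (95% interval 21.3% to 51.4%; log2 fold change 0.44, SE 0.07, edgeR adjusted p = 0.0183). The edgeR call depended on single libraries and no longer held without nup50c replicate 1 (adjusted p = 0.0550), nup50c replicate 2 (0.0516), Col-0 replicate 1 (0.109) or Col-0 replicate 2 (0.0906), while the log2 fold change stayed between 0.39 and 0.50.

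*RBCS1B*, its neighbour in the cluster, had 2493, 2269 and 2268 CPM in nup50c and 2073, 2009 and 2181 in Col-0. These groups did not overlap either, as was the case for 23.4% of all genes tested (11.7% higher and 11.6% lower in nup50c). The log2 fold change of 0.17 (SE 0.06, 95% interval 0.03 to 0.30) did not pass the edgeR test after adjustment (adjusted p = 0.204) and passed DESeq2's Wald test (adjusted p = 0.0466). *RBCS3B*, at the other end of the cluster, had 7183, 6473 and 6908 CPM in nup50c and 6493, 6441 and 7249 in Col-0. The highest and the lowest of these libraries were both from Col-0. Its log2 fold change was 0.03 (95% interval -0.12 to 0.18, edgeR adjusted p = 0.898), and its sign turned without nup50c replicate 1 or without Col-0 replicate 2 (-0.0070 and -0.0011). *RBCS1A*, the copy with the most counts, had 11695, 10866 and 11476 CPM in nup50c and 11459, 11503 and 11906 in Col-0. Its groups overlapped, and the log2 fold change was -0.03 (95% interval -0.15 to 0.08, edgeR adjusted p = 0.815). It ran from -0.0563 without nup50c replicate 1 to -0.0068 without nup50c replicate 2.

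**Figure D2:**
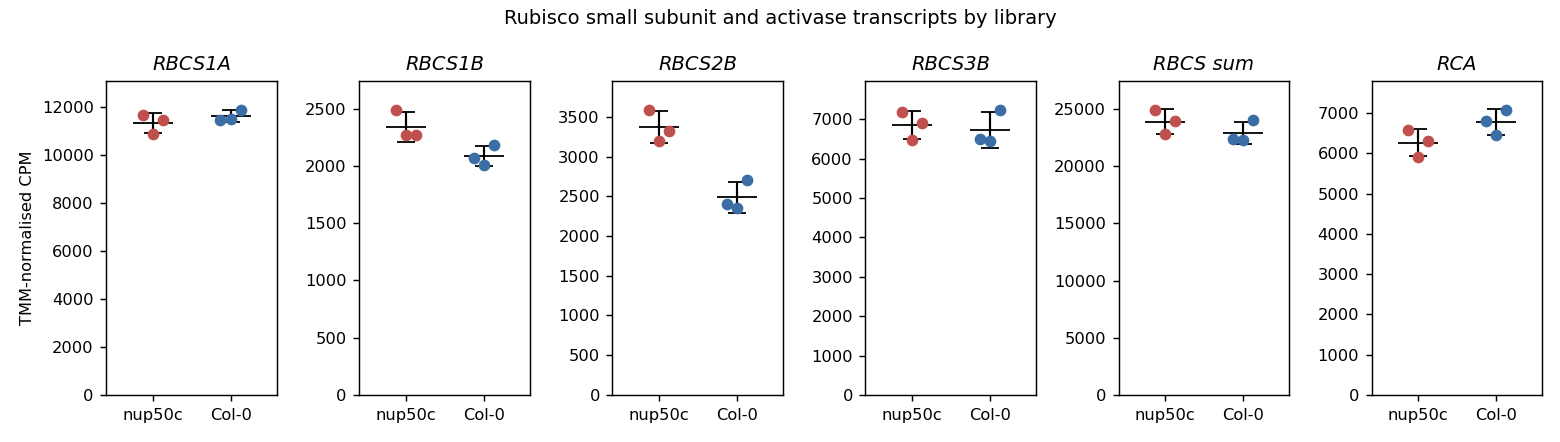
TMM-normalized CPM of each RBCS copy, of the sum of the 4 copies and of RCA, by library (points), with group means and SD (bars, n = 3 each). RBCS2B and RBCS1B show groups that do not overlap, with nup50c above Col-0, while the groups overlap in the other panels.

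The summed small subunit transcripts were close in both groups. The 4 copies together had 24964, 22802 and 23978 CPM in nup50c, against 22429, 22303 and 24041 CPM in Col-0, and held between 2.32% and 2.50% of all counts in nup50c and between 2.24% and 2.39% in Col-0. The difference was 4.32% (95% interval -4.61% to 14.1%; log2 fold change 0.06, SE 0.06, edgeR adjusted p = 0.670), fitted in a table where 1 row of sums replaced the 4 copies. The log2 fold change of the sum ran from 0.0298 without nup50c replicate 1 to 0.0967 without Col-0 replicate 3, and did not pass the test without any single library. *RBCS2B* was 883.2 CPM higher in nup50c, *RBCS1B* 255.4 and *RBCS3B* 127.3, and *RBCS1A* differed by -276.9 CPM.

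The make-up of the *RBCS* pool was described by the share of each copy. *RBCS2B* made up 14.1% ± 0.273 of the summed *RBCS* counts in nup50c and 10.8% ± 0.371 in Col-0 (SD, n = 3 each). On the FPKM scale, which is per length, the share was 18.5% ± 0.360 in nup50c and 14.4% ± 0.452 in Col-0. *RBCS1A* made up 45.9% ± 0.520 of the summed FPKM in nup50c and 49.6% ± 1.18 in Col-0. *RBCS3B* held 29.2% ± 0.223 in nup50c and 30.1% ± 0.763 in Col-0, and *RBCS1B* 6.35% ± 0.195 in nup50c and 5.96% ± 0.0869 in Col-0. For each copy the shares of the groups did not overlap, but for *RBCS3B* the gap on counts was narrow, with 28.81% in the highest nup50c library and 28.88% in the lowest Col-0 library. Its mean difference of -0.667 percentage points on counts was -0.255 without Col-0 replicate 3. Shares add up to a whole, so that a higher share of one copy lowers those of the others.

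**Figure D3:**
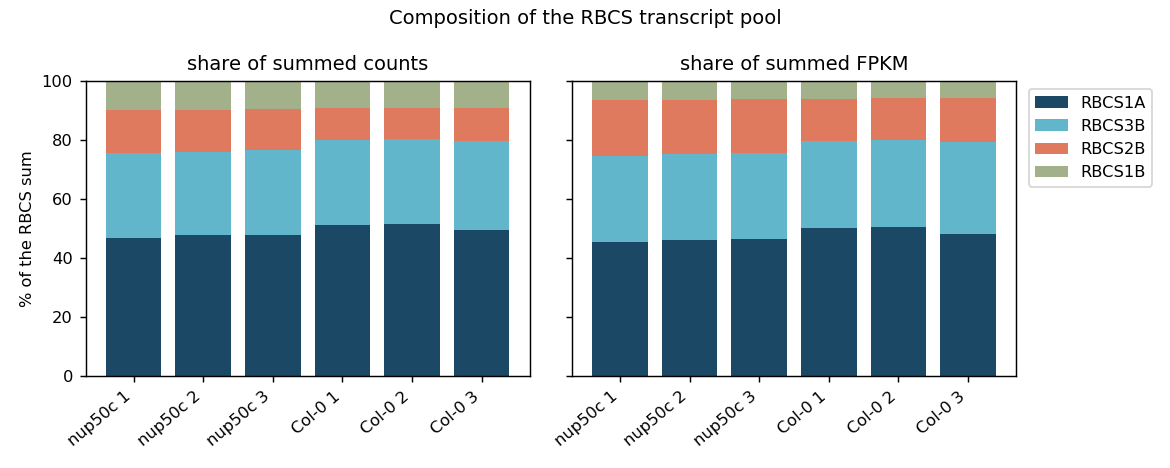
Share of each RBCS copy in the summed RBCS counts (left) and summed RBCS FPKM (right), as a percentage, in each library. The RBCS2B band is wider in the 3 nup50c libraries (mean 14.1% of counts) than in the 3 Col-0 libraries (mean 10.8%).

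Ratios within a library do not depend on how libraries are scaled. Counts of *RBCS2B* per count of *RBCS3B* were 0.5002, 0.4934 and 0.4812 in nup50c, against 0.3702, 0.3651 and 0.3733 in Col-0. The mean log2 ratio was -1.02 ± 0.028 in nup50c and -1.44 ± 0.016 in Col-0 (SD, n = 3 each), so the difference of 0.41 was larger than the SD of either group. *RBCS2B* also differed against *RBCS1A* (log2 difference 0.47) and against *RBCS1B* (0.27), without overlap of the groups. *RBCS1B* was higher against *RBCS1A* (0.20) and *RBCS3B* lower against *RBCS1B* (-0.14), again without overlap, while the ratio of *RBCS3B* to *RBCS1A* overlapped (0.06). Of 8 ratios compared, 7 did not overlap and had p = 0.1 in the two-sided exact permutation test (0.114 adjusted over the 8), the smallest p that 3 libraries against 3 allow. *RBCS3B* to *RBCS1A* had p = 0.3 in the same exact test. The differences kept their sign in the deposited FPKM and without each library in turn. For the 7 ratios without overlap, leaving out a library could not turn the sign. FPKM of the *RBCS* copies followed from the same counts and a fixed length, so they were no separate check. Ratios that share a copy are not independent, so the 7 are not separate results. Among single genes, the CPM of 23.4% of those tested did not overlap. No such share was computed for ratios of other genes.

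*RCA*, the activase gene, had 6578, 5906 and 6314 CPM in nup50c and 6794, 6446 and 7085 in Col-0. The groups overlapped, with the highest nup50c library above the lowest Col-0 library, and the log2 fold change was -0.11 (SE 0.06, 95% interval -0.25 to 0.02, edgeR adjusted p = 0.406). It was -0.07 without nup50c replicate 2 and -0.08 without Col-0 replicate 3, and did not pass without any single library. Counts of *RCA* per summed count of *RBCS* were 0.263, 0.259 and 0.263 in nup50c, against 0.303, 0.289 and 0.295 in Col-0. Each nup50c library lay below each Col-0 library, and the log2 ratio differed by -0.17 (p = 0.1 in the exact permutation test). *RCA* is known to give rise to a long and a short activase isoform by alternative splicing. The annotation has 3 models, with proteins of 474, 446 and 441 residues, which counts per gene cannot tell apart.

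**Figure D4:**
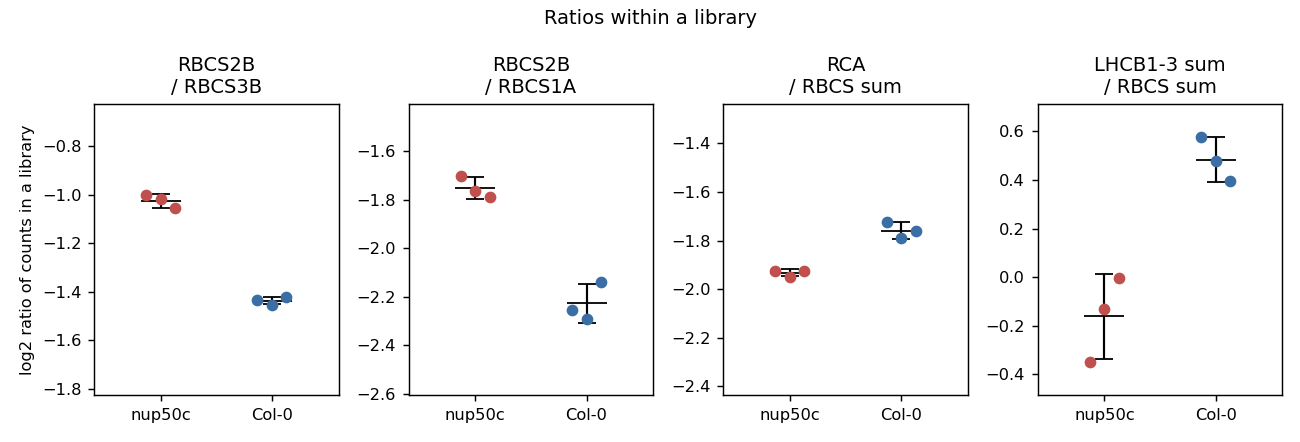
Log2 ratios of counts within a library, drawn on axes of equal span, for RBCS2B to RBCS3B, RBCS2B to RBCS1A, RCA to the RBCS sum and the summed LHCB1 to LHCB3 antenna genes to the RBCS sum (points are libraries, bars are group means and SD, n = 3 each). The groups do not overlap in any panel; RBCS2B ratios are higher and the other ratios lower in nup50c.

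Small subunits are needed in balance with the large subunit and with the proteins that fold and assemble the enzyme. Of 19 listed genes of Rubisco biogenesis, all tested, 3 rose, none fell and 16 did not pass the edgeR test, and 18 had a log2 fold change above 0. The list's median was 0.18, beside -0.00 over all 21158 genes tested. Of those, 1.12% were called higher and 1.17% lower, and 10472 lay above 0. *RBCX1*, one of 2 genes for RbcX, a chaperone that helps large subunits assemble, had 39.3, 35.8 and 42.3 CPM in nup50c, against 17.1, 21.8 and 20.8 CPM in Col-0, without overlap (log2 fold change 0.98, SE 0.12, edgeR adjusted p = 0.00646). The other gene, *RBCX2*, was at 44.5 ± 1.68 CPM in nup50c and 47.1 ± 5.26 in Col-0 (log2 fold change -0.08, edgeR adjusted p = 0.741). *MRL1*, a pentatricopeptide repeat protein needed for *rbcL* messenger RNA, had 174.7, 170.3 and 165.7 CPM in nup50c, against 118.3, 121.3 and 133.4 CPM in Col-0 (log2 fold change 0.45, SE 0.07, edgeR adjusted p = 0.0111). In *RBCX1* and *MRL1* each nup50c library lay above each Col-0 library. *RBCX1* kept its call without each library. *MRL1* lost it without nup50c replicate 2 or Col-0 replicate 1 or 2 (highest adjusted p = 0.0752), and 1 gene of the list was called without nup50c replicate 2, Col-0 replicate 1 or Col-0 replicate 2. *rbcL* itself had 11.2 ± 1.02 CPM in nup50c and 10.2 ± 3.09 in Col-0 (edgeR adjusted p = 0.833), far below the nuclear copies. Plastid messengers mostly lack the long poly(A) tails of nuclear ones, so mRNA libraries measure them poorly.

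Among 19 listed enzymes and regulators of the Calvin cycle, the pathway that Rubisco opens, 2 rose, none fell and 17 did not pass. Of the list, 14 had a log2 fold change above 0, and the median was 0.15. Over all 21158 genes tested, 1.12% were called higher and 1.17% lower, and 10472 lay above 0. *TKL1*, a transketolase of the regeneration phase, had 2856, 2601 and 2702 CPM in nup50c, against 1842, 1966 and 2087 CPM in Col-0 (log2 fold change 0.47, SE 0.06, edgeR adjusted p = 0.00923). *CP12-2*, encoding a small protein that binds glyceraldehyde-phosphate dehydrogenase and phosphoribulokinase in the dark, rose by 0.52 (SE 0.08, edgeR adjusted p = 0.0128). Both had no overlap between the groups. The call of *TKL1* was lost without Col-0 replicate 2 (adjusted p = 0.0515) and that of *CP12-2* without Col-0 replicate 1 (adjusted p = 0.0698). The summed level of the list ran from 16805 to 18404 CPM in nup50c and from 15296 to 16295 CPM in Col-0.

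**Figure D5:**
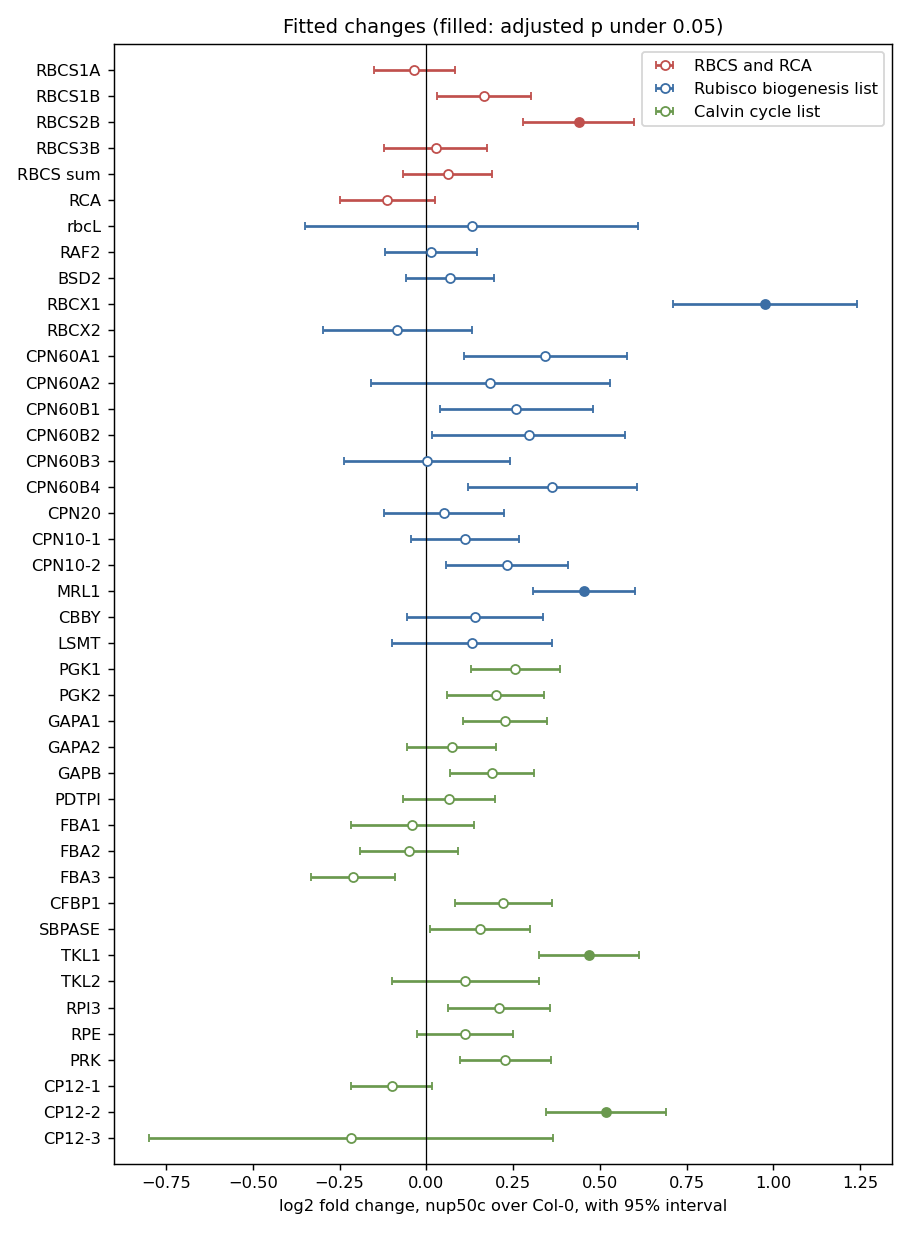
Log2 fold changes of nup50c over Col-0 with 95% intervals for the RBCS copies, their sum and RCA (red), genes of the Rubisco biogenesis list (blue) and 19 of the Calvin cycle (green); filled points have an edgeR adjusted p under 0.05. RBCS2B lies at 0.44 and RBCX1 at 0.98, and of the biogenesis genes drawn RBCX2 alone lies below 0.

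Of 9 listed transcription factors known to act on *RBCS* or other photosynthesis promoters, 2 fell, none rose and 7 did not pass. Over all genes tested, 1.17% were called lower and 1.12% higher. *HYH*, a bZIP homologue of HY5 that binds G-boxes, had 8.16, 10.4 and 10.1 CPM in nup50c, against 25.4, 19.6 and 20.0 CPM in Col-0 (log2 fold change -1.18, SE 0.15, edgeR adjusted p = 0.00804). *GLK2*, a GARP factor of chloroplast development, was at 48.9 ± 3.44 CPM in nup50c and 75.8 ± 12.9 in Col-0 (SD, n = 3 each; log2 fold change -0.63, edgeR adjusted p = 0.0367). Its call was lost without any single library except Col-0 replicate 2 (highest adjusted p = 0.127). *HY5* itself was at 16.8 ± 3.28 CPM in nup50c and 17.9 ± 1.29 in Col-0 and did not pass (edgeR adjusted p = 0.843).

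The main antenna of photosystem II, another nuclear gene family of very high expression, was set beside the small subunits. Of the 9 *LHCB1*, *LHCB2* and *LHCB3* genes, 7 fell and 2 did not pass, with a median log2 fold change of -0.90. The share called lower over all genes tested was 1.17%. The 4 with the smallest p were *LHCB1.1* (log2 fold change -1.33), *LHCB2.2* (-1.08), *LHCB3* (-0.90) and *LHCB2.3* (-1.31), each with an edgeR adjusted p of at most 0.00311. *LHCB1.3*, the copy with the most counts, did not pass (log2 fold change -0.24, edgeR adjusted p = 0.112). It was at 10765 ± 878 CPM in nup50c and 12693 ± 391 in Col-0 (SD, n = 3 each). *LHCB* copies are close in sequence, so single copies are uncertain here too. Summed antenna counts per summed *RBCS* count were 0.785, 0.913 and 0.997 in nup50c, against 1.49, 1.39 and 1.32 in Col-0. On counts, the antenna sum was thus below the *RBCS* sum in each nup50c library, narrowly in replicate 3 (0.997), and above it in each Col-0 library. Counts are not per length, so which sum is larger can depend on the scale. The log2 ratio differed by -0.65, from means of -0.16 ± 0.17 in nup50c and 0.48 ± 0.091 in Col-0 (SD, n = 3 each; p = 0.1 in the exact permutation test, 0.114 adjusted over 8 ratios).

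How the members varied together across the 6 libraries is described here by Pearson's r of log2 CPM, whose 6 points share the group difference. *RBCS1B* and *RBCS2B* had r = 0.954 and *RBCS1A* and *RCA* r = 0.890, while *RBCS1A* had r = -0.15 with *RBCS2B*. *RBCS3B* lay between, with r = 0.722 with *RBCS1A*, 0.625 with *RBCS1B*, 0.511 with *RBCS2B* and 0.52 with *RCA*. Among 13148 genes with a mean of at least 10 CPM, those most like *RBCS2B* were *MGD1*, encoding a synthase of the chloroplast galactolipid MGDG, and *EMB2453* (r = 0.996 each). *MGD1* was at 95.7 ± 2.94 CPM in nup50c and 77.9 ± 4.80 in Col-0 (edgeR adjusted p = 0.0628). Those most like *RBCS1B* were *LPA66*, a pentatricopeptide repeat protein of plastid RNA editing (r = 0.995), and *ZFN3* (0.991). *CLA1*, the first enzyme of plastid isoprenoid synthesis, and *AAP4*, an amino acid permease, were most like *RCA* (0.984 and 0.981). *TMT2* and *FAD5* were most like *RBCS3B* (0.985 each), and AT2G01680 and *VSP2* most like *RBCS1A* (0.987 and 0.986). All these genes were picked as the highest of 13148 correlations over only 6 libraries. How high r would run by chance in such a search was not tested.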

How the data were processed

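For the 6 libraries the authors deposited gene counts, which are whole numbers, and, in a separate table, FPKM values. The submitters' processing notes list the build TAIR10 and the tools HTSeq 0.6.1p1 and HISAT2 2.0.4, with no role or order; neither the handling of multiply mapped reads nor the strand setting of the counting is stated there. Groups came from the sample titles. Per the labels, libraries kept strand. Loci were matched to RefSeq TAIR10.1 (30645 of 30865), which supplied positions and sequences; no coordinate came from the deposited tables.

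The main test was edgeR 4.0.16 (R 4.3.3) on the counts: filterByExpr (at least 10 counts, 15 in total), TMM scaling, the robust quasi-likelihood F test with no covariate, and Benjamini-Hochberg adjustment over 21158 genes. Standard errors and 95% intervals were derived from the moderated F. The *RBCS* sum was fitted in the whole table with 1 row for the 4 copies. Ratios were compared with exact permutation tests (SciPy 1.17.1). Coding sequences were aligned with MAFFT 7.526, and the 250 bases upstream with Biopython 1.88. DESeq2 1.42.0 and limma 3.58.1 on log2(FPKM + 1) were alternatives. No library duplicated another: within groups, a chi-square of 14.5 to 30.0 per gene exceeded sampling noise. The test was tried on simulated data first. It called 45 of 250 genes given a log2 change of 0.5 (18%) and 184 of 250 given 1 (73.6%). The changed genes were drawn over a wide range of levels, mostly far below the members, so these shares need not hold for the members. Of all 718 calls, 30 were on unchanged genes. Not passing thus does not show that a transcript is unchanged. No count of a member was 0.

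The members and lists were chosen with earlier results of these data known. The genes named are the 5 members, up to 4 called genes of each of 4 lists by smallest p, *rbcL*, the 2 genes most like each member, and *NUP50C*, *CCA1* and *TOC1*. *RBCX2*, *HY5* and *LHCB1.3* were added after their values were seen. 1 called gene of the Rubisco biogenesis list, counted but not named, is not reported here, and the plot of fold changes leaves out some genes of that list.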

Additional observations from a re-analysis of the deposited data

How the results depend on the processing

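Of 90 values of the members and the *RBCS* sum under alternative settings, 82 kept their direction and their side of the threshold. *RBCS2B*, the only member called, kept its call in 10 of 15 settings. All 64 values of the 8 ratios kept their direction, and their tests cannot pass 0.05 in this design. Most of these directions were fixed beforehand. The replicate block leaves each difference as it is, and where groups do not overlap, leaving out a library cannot turn the sign. Each member had at least 72774 counts in every library. *RBCS1B* passed with DESeq2 (log2 fold change 0.17, adjusted p = 0.0466). *RBCS2B* ran from 0.39 to 0.50 and *RBCS3B* from -0.0070 to 0.0842 without single libraries, turning negative without nup50c replicate 1 (-0.0070) or Col-0 replicate 2 (-0.0011). *RBCS1A* ran from -0.06 to -0.0068, *RCA* from -0.15 to -0.07, the *RBCS* sum from 0.03 to 0.10, the ratio of *RBCS3B* to *RBCS1A* from 0.04 to 0.10 and *rbcL* from -0.0466 to 0.39. DESeq2 called 660 genes higher and 617 lower, and the filter of at least 10 counts in all libraries left 394 and 378; without single libraries edgeR called 43 to 172 higher and 65 to 266 lower. In the Rubisco biogenesis list 1 to 3 genes were called higher without single libraries. In the Calvin cycle list it was 1 to 2, with DESeq2 9 higher and 1 lower, and in the 3 FPKM settings 4 higher. Of the transcription factors 1 to 2 were called lower without single libraries, and of the antenna genes 6 to 8. On the FPKM scale the share of *RBCS2B* differed by 4.13 percentage points, against 3.25 on counts, and that of *RBCS1B* by 0.392, against 0.691. FPKM divide the counts by the longest transcript, 935 bases for *RBCS2B* and 1894 for *RBCS1B*, so the scales weight the copies differently. The cause of the other shifts was not tested.

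Titles of both groups carry the numbers 1 to 3, but deviations of same-numbered libraries correlated at -0.03, -0.12 and -0.10, so the numbers were not taken as pairs. With a replicate block, edgeR called 12 genes higher and 19 lower, the log2 fold change of *RBCS2B* was 0.44 (adjusted p = 0.0978), and 0 biogenesis, 0 Calvin cycle and 0 transcription factor genes and 4 antenna genes were called.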
